A study of Homo sapiens with 24 samples.

Results

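The difference between 2 acute myeloid leukaemia (AML) cell lines in their response to the compound ARM165 was measured gene by gene. For each gene the change with ARM165 against DMSO, the solvent control, was taken in OCI-AML2 and in MOLM14 on the log2(value + 1) scale, and the MOLM14 change was subtracted from the OCI-AML2 change. The 16 libraries used, of 24 in the series, were 4 of OCI-AML2 with ARM165, 4 of OCI-AML2 with DMSO, 4 of MOLM14 with ARM165 and 4 of MOLM14 with DMSO, all from cells treated for 24 h. Of 35587 gene symbols, 14287 had at least 10 normalized estimated reads in at least 4 libraries of each line and were tested.

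Both lines are established human leukaemia cultures. MOLM14 was derived from an acute monocytic leukaemia and carries a KMT2A-MLLT3 fusion and an internal tandem duplication of the receptor tyrosine kinase gene FLT3. OCI-AML2 was derived from an acute myelomonocytic leukaemia. The other 8 libraries, of cells given a second compound named AZ2, entered no comparison and served only to estimate the spread between replicates. The series title names a degrader of PI3K gamma and AKT signalling in AML, and nothing in the labels ties that word to ARM165 or to AZ2. Doses are not given, nor whether the lines received equal ones. It is not stated that replicates came from separate cultures, so the p-values speak of variation among libraries, part or all of which may be technical.

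PI3K gamma is a lipid kinase of blood cells, made of a catalytic subunit encoded by PIK3CG and a regulatory subunit encoded by PIK3R5 or PIK3R6. Its product at the membrane recruits the kinases of the AKT family, which promote growth, glucose and lipid metabolism and survival, and which keep FOXO transcription factors out of the nucleus. In myeloid cells PI3K gamma acts downstream of chemokine receptors and RAS. A difference between lines in the response to a compound shows where the same exposure time was followed by unlike changes in RNA relative to each line's own control.

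Values are normalized estimated reads per gene. Each line was scaled on its own by the authors, so levels were compared only within a line, and a change is relative to the other genes of that line. A difference above 0 is written below as a higher response in OCI-AML2: it covers a larger rise, a smaller fall, or a rise against a fall. Changes and differences are log2 values ± SE, with 1 estimate of the spread per gene shared by all groups of both lines, and adjusted p-values are those of the difference from 1 limma fit over all genes tested, called under 0.05. In bulk RNA, fewer cells of a type and less RNA per cell cannot be told apart.

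The 16 libraries held 35.4 M to 59.0 M estimated reads and 19005 to 19699 symbols above 0. All 13 myeloid markers checked, among them CD33, SPI1 and PTPRC, averaged at least 10 normalized reads in every group but OCI-AML2 with ARM165, where 12 did. The summed normalized reads were 42.2 M to 43.8 M with ARM165 and 42.9 M to 45.4 M with DMSO in OCI-AML2, and 37.3 M to 41.2 M with ARM165 and 43.3 M to 45.0 M with DMSO in MOLM14. One library stood apart from its group: OCI-AML2 DMSO replicate 2 lay at -56.9 on the second component of its line, which carried 7.50% of the variance. Without it 6061 differences were called, against 6053 with it.

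ARM165 moved many genes in both lines, and for 6053 of 14287 genes (42.4%) the size or direction of the change differed between the lines beyond the spread of libraries. In OCI-AML2, 9921 genes were called (69.4%), of which 5213 rose (36.5%) and 4708 fell (33.0%). In MOLM14, 9865 were called (69.0%), of which 5002 rose (35.0%) and 4863 fell (34.0%). In OCI-AML2 the response was higher for 3471 genes (24.3%) and lower for 2582 (18.1%). Differences of at least 1 on the log2 scale numbered 1450, of which 645 were higher and 805 lower in OCI-AML2. The median size of a difference was 0.40, against a median SE of 0.15, and the median size of a change was 0.65 in OCI-AML2 and 0.61 in MOLM14.

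Most of the genes that responded in both lines moved the same way. Of 8013 genes called in both, 7365 changed in the same direction and 648 in opposite directions (4.54% of the genes tested), and the difference was called for each of the 648. Among these, 365 rose in OCI-AML2 and fell in MOLM14, and 283 did the reverse. A further 1131 rose in both lines but further in OCI-AML2, and 481 rose further in MOLM14. Another 826 fell in both but further in OCI-AML2, and 700 fell further in MOLM14. One line alone was called for 659 genes that rose and 493 that fell in OCI-AML2, and for 472 that rose and 599 that fell in MOLM14. The remaining 44 were called in neither line on its own. Across the 14287 genes, Pearson's r between the changes of the lines was 0.72 and Spearman's rho was 0.71. This describes the libraries across genes, which are not independent replicates.

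The split between higher and lower responses rested on how libraries are scaled. Of the called differences, 57.3% were higher in OCI-AML2 with the deposited scaling, 53.2% with quantile normalization within each line and 38.4% with every library of a line rescaled to the same total. The last of these moved the median difference of all genes by -0.16, to -0.11 against 0.044 with the deposited scaling. The lists for which a rescaling turned the median are named below. In each list, counts of members called higher and lower stand against 24.3% and 18.1% of all genes, and no test compares a list with other genes. Rescaled counts stand against 3305 higher and 2903 lower of all genes with quantile normalization, and 2382 and 3821 with equal totals.

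**Figure D1:**
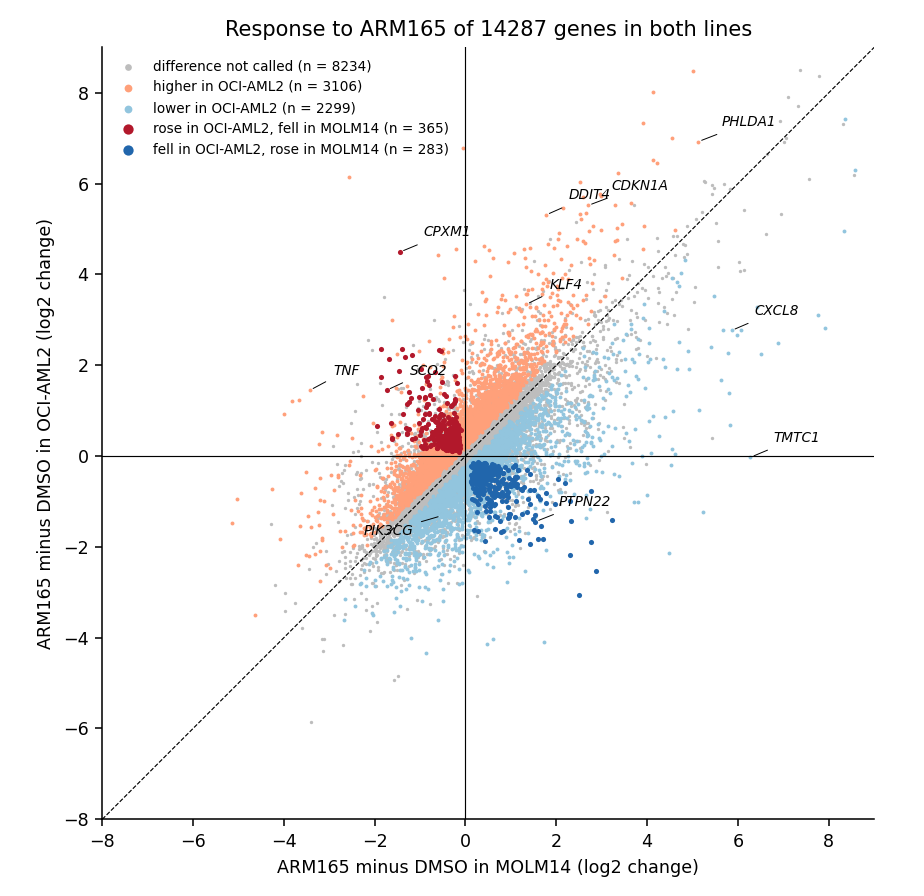
Change with ARM165 in OCI-AML2 (vertical axis, log2) against the change in MOLM14 (horizontal axis, log2) for 14287 genes, with the line of equal change dashed. The 648 genes with opposite calls are in dark colours: 365 at the upper left and 283 at the lower right.

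The PI3K gamma genes themselves responded unequally in the lines. PIK3CG fell in both lines and further in OCI-AML2. OCI-AML2 libraries held 1180.2, 1259.7, 1257 and 1259.8 reads with ARM165, against 3237, 3259, 2995 and 2845 with DMSO. The MOLM14 libraries held 2359, 2175, 2160.1 and 2108 with ARM165, against 3143, 2896, 3227 and 3376 with DMSO. All 4 treated libraries lay below all 4 controls in each line, and the gap was wider in OCI-AML2. The changes were -1.31 ± 0.062 in OCI-AML2 and -0.52 ± 0.062 in MOLM14, a difference of -0.79 ± 0.088 (adjusted p = 1.08e-07).

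PIK3R5, the regulatory subunit also called p101, rose in both lines and further in MOLM14. Its values in OCI-AML2 were 3475, 3413, 3559 and 3443 with ARM165 and 1597, 1328, 1583 and 1598 with DMSO. In MOLM14 they were 1149, 1082, 1025 and 1036 with ARM165 and 296, 335, 323 and 270.2 with DMSO. No treated library overlapped a control in either line. The difference was -0.62 ± 0.11 (adjusted p = 0.000105), from changes of 1.19 ± 0.081 in OCI-AML2 and 1.81 ± 0.081 in MOLM14. PIK3R6, which encodes the alternative subunit p84, fell in both lines and was low in OCI-AML2, at 50.3 ± 21.8 with ARM165 and 80.7 ± 11.4 with DMSO (mean ± SD, n = 4). In MOLM14 it averaged 136 ± 19.9 with ARM165 and 213 ± 35.0 with DMSO. Its difference of -0.12 ± 0.37 was not called (adjusted p = 0.825), with a 95% interval of -0.88 to 0.64 that spans changes in either direction.

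AKT1 fell in both lines, less in OCI-AML2. It had 6289, 6947, 6787 and 6266 reads with ARM165 and 9699.6, 8163, 9506 and 9213 with DMSO in OCI-AML2. The MOLM14 values were 2459, 2884, 2969 and 2588 with ARM165 and 6029.7, 5338, 5696 and 5762 with DMSO. All treated libraries lay below all controls in both lines. The difference was 0.59 ± 0.089 (adjusted p = 8.44e-06), from -0.47 ± 0.063 in OCI-AML2 and -1.07 ± 0.063 in MOLM14. AKT2 fell in both lines, by a change of -0.69 ± 0.066 in OCI-AML2 and -0.98 ± 0.066 in MOLM14. Its difference of 0.29 ± 0.093 (adjusted p = 0.0130) was not called with quantile normalization (0.21, adjusted p = 0.0786) or with equal totals (0.13, adjusted p = 0.284).

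The class I catalytic subunits were set side by side after their values were seen. PIK3CB, the beta subunit, fell in OCI-AML2 and was not called in MOLM14. It had 2042, 1725, 1887 and 2256 reads with ARM165 against 4173, 4232, 3896 and 3755 with DMSO in OCI-AML2. Its MOLM14 values were 4484, 4429, 4312 and 4632 with ARM165 against 4147, 4206, 4297 and 4218 with DMSO. The treated libraries lay well below their controls in OCI-AML2 and slightly above them in MOLM14. The difference was -1.11 ± 0.083 (adjusted p = 1.81e-10), with the largest size of the 29 members. PIK3CA, the alpha subunit, rose in both lines and further in OCI-AML2 (1.93 ± 0.14 in OCI-AML2, 1.07 ± 0.14 in MOLM14, difference 0.86 ± 0.20, adjusted p = 0.000921). PIK3CD, the delta subunit of blood cells, fell in both lines (-1.24 ± 0.067 in OCI-AML2 and -1.42 ± 0.067 in MOLM14), and its difference of 0.18 ± 0.095 was not called (95% interval -0.018 to 0.37), though it was called without OCI-AML2 DMSO replicate 1 (0.24).

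The phosphatases that remove the PI3K product also parted. INPP4A, a 4-phosphatase, fell in OCI-AML2 (-0.74 ± 0.076) and rose in MOLM14 (0.31 ± 0.076), the single opposite call of the list (difference -1.06 ± 0.11, adjusted p = 3.27e-08). INPP5D, which encodes the 5-phosphatase SHIP1 of blood cells, fell in both lines and further in OCI-AML2. Its values were 251, 266, 271 and 260.0 with ARM165 and 646, 579.9, 604 and 562 with DMSO in OCI-AML2. In MOLM14 they were 654, 728, 819 and 716 with ARM165 and 1072, 910.1, 1009.8 and 1011 with DMSO. The groups did not overlap in either line, and the difference was -0.73 ± 0.10 (adjusted p = 3.85e-06). The other members with a higher response in OCI-AML2 were PIK3C3, the kinase of autophagy, INPPL1, INPP4B and PHLPP2, phosphatases of the pathway, and MTOR, with differences of 0.41 to 0.89. Others with a lower response were PIK3R2, a regulatory subunit of class I kinases, PDPK1, the kinase that activates AKT, and RPTOR, the mTORC1 scaffold, with differences of -0.41 to -0.32. Among those without a called difference were PIK3CD, PIK3R1, PIK3R3, PIK3R4, PIK3R6, PIK3AP1, PHLPP1, RICTOR, MLST8, TSC1 and TSC2.

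Over the 29 PI3K and AKT components tested, 8 were higher and 9 lower in OCI-AML2, 58.6% in all against 42.4% of all genes. The median difference was 0.057, against 0.044 for all genes, and turned to -0.023 with quantile normalization and -0.10 with equal totals.

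**Figure D2:**
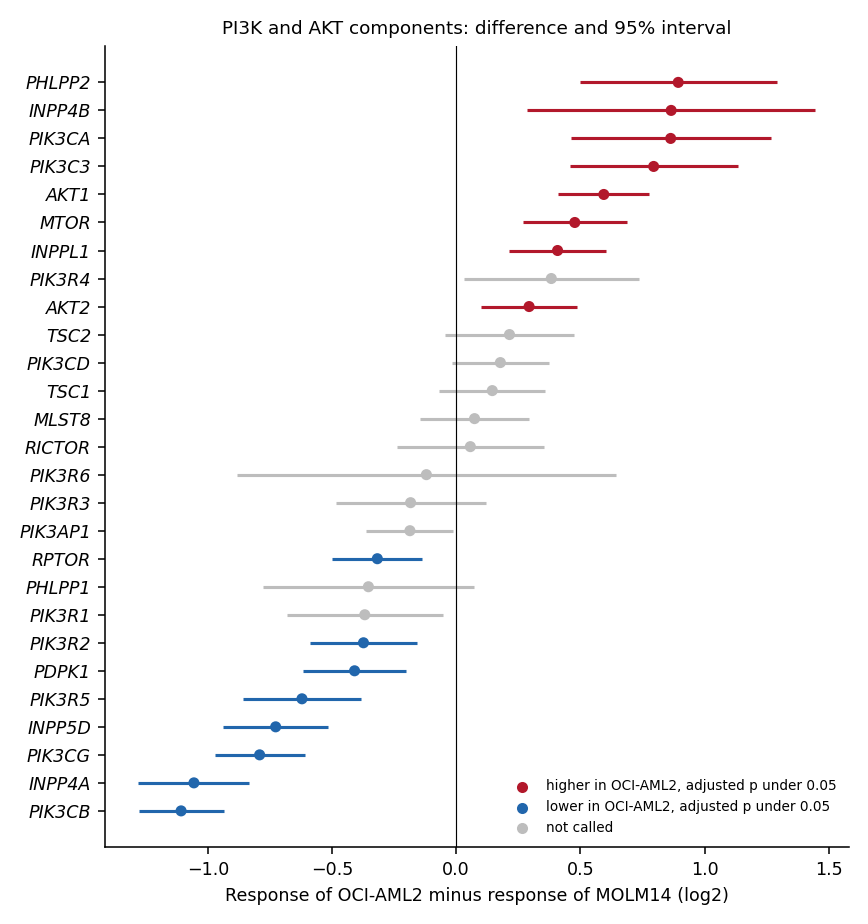
Difference of the ARM165 response (OCI-AML2 minus MOLM14, log2) of 27 of the 29 PI3K and AKT components, with 95% intervals of single genes. Points in red are called higher in OCI-AML2 (8 genes), points in blue lower (8 genes) and points in grey are not called (11 genes).

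FOXO-induced genes rise when AKT is less active in many cell types. Of 18 members tested, 12 rose and 3 fell in OCI-AML2, and 14 rose and 3 fell in MOLM14. Among all genes, 36.5% rose and 33.0% fell in OCI-AML2, and 35.0% rose and 34.0% fell in MOLM14. The response was higher in OCI-AML2 for 6 members and lower for 5, against 24.3% and 18.1% of all genes, with a median difference of -0.058. With equal totals 8 were lower. KLF2, a transcription factor of quiescent leukocytes, rose in both lines and further in OCI-AML2. It had 606, 499.7, 503 and 479.8 reads with ARM165 and 60.1, 44.7, 82.1 and 46.5 with DMSO in OCI-AML2. MOLM14 had 295, 386, 381 and 358 with ARM165 and 199, 218, 185 and 286 with DMSO. The treated libraries were above all controls in both lines, and the difference was 2.49 ± 0.26 (adjusted p = 4.64e-08). INSR, the insulin receptor, also rose further in OCI-AML2 (1.82 ± 0.11 against 0.88 ± 0.11 in MOLM14, difference 0.94 ± 0.15, adjusted p = 2.16e-05). SESN1, an antioxidant protein that restrains mTORC1, rose further in MOLM14 (0.84 ± 0.081 in OCI-AML2 and 1.56 ± 0.081 in MOLM14, difference -0.71 ± 0.11, adjusted p = 2.04e-05). IRS2, an adaptor of the insulin receptor, rose in OCI-AML2 (0.33 ± 0.060) and fell in MOLM14 (-0.24 ± 0.060), a difference of 0.57 ± 0.084 (adjusted p = 7.80e-06). Its groups overlapped in MOLM14, and the direction of so small a fall may rest on scaling, which was not tested. With equal totals the IRS2 difference was 0.41.

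Opposite calls were ranked by the smaller of the changes in the 2 lines, among genes averaging at least 100 reads in 1 group of each line, and the first 8 are described. PTPN22, a tyrosine phosphatase of leukocytes, was 1 of these. In OCI-AML2 it had 319.5, 363, 275 and 323 reads with ARM165, against 861, 964, 821 and 841 with DMSO. Values in MOLM14 were 4806, 4819, 4817 and 5004 with ARM165, against 1703, 1747, 1695 and 1573 with DMSO. The treated OCI-AML2 libraries all lay below their controls and the treated MOLM14 libraries all lay above theirs. The difference was -2.98 ± 0.10 (adjusted p = 1.14e-15), from -1.45 ± 0.073 in OCI-AML2 and 1.53 ± 0.073 in MOLM14.

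SCO2, a copper chaperone needed to assemble cytochrome c oxidase, moved the other way. Its OCI-AML2 values were 2227, 2677, 2474 and 1995 with ARM165 and 800.2, 943, 898 and 777 with DMSO. In MOLM14 its values were 263, 387, 249 and 322 with ARM165 and 912, 1086, 1031 and 992 with DMSO. There was no overlap between groups in either line, and the difference was 3.19 ± 0.20 (adjusted p = 9.40e-12). KITLG, the ligand of the receptor KIT, likewise rose in OCI-AML2 (2.23 ± 0.21) and fell in MOLM14 (-1.19 ± 0.21), a difference of 3.42 ± 0.30 (adjusted p = 3.17e-09). FOSL1, an AP-1 subunit induced through ERK, rose in OCI-AML2, with 1330.4, 1529.8, 1421 and 1461 reads with ARM165 and 723, 634, 744 and 733 with DMSO. It fell in MOLM14, with 451, 416, 525 and 428 with ARM165 and 865, 925, 1039 and 900.3 with DMSO. The groups were apart in both lines in opposite directions, a difference of 2.06 ± 0.11 (adjusted p = 8.58e-13).

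RUBCNL, which takes part in autophagosome maturation, rose in OCI-AML2 (1.28 ± 0.18) and fell in MOLM14 (-1.20 ± 0.18). RIPOR2, an inhibitor of RHOA, did the same (1.18 ± 0.24 in OCI-AML2 and -1.24 ± 0.24 in MOLM14). PILRA, an inhibitory receptor of myeloid cells, fell in OCI-AML2 (-1.06 ± 0.24) and rose in MOLM14 (1.96 ± 0.24). Their differences were 2.48 ± 0.26, 2.42 ± 0.34 and -3.03 ± 0.34, with adjusted p = 4.75e-08, 4.20e-06 and 1.09e-07. The remaining gene of the 8, CPXM1, a secreted protein related to carboxypeptidases, was also among the largest differences of all. It had 396, 282, 315 and 309.8 reads with ARM165 and 14.2, 13.1, 7.45 and 22.7 with DMSO in OCI-AML2. For MOLM14 the values were 210.2, 274, 304 and 250.0 with ARM165 and 669, 699, 741 and 695 with DMSO. The treated libraries lay above the controls in OCI-AML2 and below them in MOLM14, a difference of 5.94 ± 0.63 (adjusted p = 6.20e-08).

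The 8 largest called differences in each direction were taken at the same level. The lowest was that of TMTC1, an endoplasmic reticulum mannosyltransferase. In OCI-AML2 it had 729.9, 726, 780.3 and 862 reads with ARM165 and 749, 802, 916 and 699.5 with DMSO, groups that overlapped. MOLM14 libraries gave 315, 454, 368 and 265 with ARM165 and 6.67, 4.29, 0.33 and 6.28 with DMSO. The transcript was near 0 in MOLM14 controls and rose there without overlap, a difference of -6.30 ± 0.74 (adjusted p = 2.75e-07). DNAH17, an axonemal dynein heavy chain, rose in both lines. Its OCI-AML2 values were 209, 161, 150.1 and 141 with ARM165 and 88.5, 74.2, 79.9 and 77.5 with DMSO. In MOLM14 it reached 2610.0, 2322, 2092 and 2024 with ARM165, against 65.4, 67.7, 63.5 and 56.4 with DMSO. This rise was larger in MOLM14 than in OCI-AML2, a difference of -4.11 ± 0.32 (adjusted p = 3.93e-10). CELSR3, an adhesion receptor related to cadherins, fell in OCI-AML2 (-0.76 ± 0.25) and rose in MOLM14 (2.76 ± 0.25), a difference of -3.53 ± 0.35 (adjusted p = 2.07e-08).

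TCTEX1D1, related to dynein light chains, fell in OCI-AML2, with 11.7, 8.85, 6.33 and 30.4 reads with ARM165 and 239, 260.3, 155 and 203 with DMSO. In MOLM14 it had 425, 414, 551 and 438 with ARM165 and 278, 278, 266 and 380.4 with DMSO, a change that was not called although the groups did not overlap. The difference was -4.63 ± 0.42 (adjusted p = 4.80e-09). TGFBI, an extracellular matrix protein, was not called in OCI-AML2 (0.059 ± 0.61) and rose in MOLM14 (4.08 ± 0.61), a difference of -4.02 ± 0.86 (adjusted p = 0.000557). Its MOLM14 controls were low and uneven, at 23.4, 1.07, 3.05 and 7.58 reads. SHISA4, a membrane protein, rose in both lines and further in MOLM14 (1.68 ± 0.46 in OCI-AML2 and 5.63 ± 0.46 in MOLM14, adjusted p = 2.68e-05). The SHISA4 controls in MOLM14 held 8.87, 15.4, 6.23 and 1.63 reads.

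On the other side, PHLDA2, an imprinted growth regulator of the placenta, rose in OCI-AML2. It had 697, 828, 693 and 807 reads with ARM165 and 78.3, 5.72, 49.2 and 56.0 with DMSO there. The MOLM14 libraries held 437, 489.9, 462 and 553 with ARM165 and 869.5, 711, 659 and 734 with DMSO. This change of -0.61 ± 0.44 was not called, although the groups did not overlap. The difference was 5.04 ± 0.62 (adjusted p = 4.85e-07). TM4SF19, a tetraspanin-like protein of macrophages and osteoclasts, rose in both lines. Treated OCI-AML2 libraries held 1428, 1293, 1481 and 1417 reads, against 3.57, 0, 25.4 and 6.18 in the controls. Treated MOLM14 libraries held 67.6, 99.5, 97.4 and 189.6, against 6.67, 3.68, 20.0 and 0.791 in the controls. The groups were apart in both lines, and the difference was 3.88 ± 1.11 (adjusted p = 0.00665). PLEKHN1, a protein with pleckstrin homology domains, rose in OCI-AML2 (4.54 ± 0.47) and was not called in MOLM14 (0.51 ± 0.47), a difference of 4.03 ± 0.67 (adjusted p = 2.99e-05). Its OCI-AML2 controls held 4.28, 2.16, 3.37 and 17.8 reads.

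The sizes of the differences of TMTC1, TGFBI, SHISA4, TM4SF19 and PLEKHN1 are uncertain, because controls of at least 1 line were near 0. The other large differences rest on values that varied widely between replicates or on transcripts that share sequence. TNF, the inflammatory cytokine, had 843, 1964, 1913 and 194 reads with ARM165 and 141, 818, 117 and 812 with DMSO in OCI-AML2. MOLM14 had 32.6, 49.4, 1300.2 and 33.2 with ARM165 and 1254, 2866, 3105 and 90.2 with DMSO. Groups overlapped in both lines, and the difference of 4.88 ± 1.89 (adjusted p = 0.0409) was not called in 11 of the 16 fits that left out 1 library each (adjusted p 0.00738 to 0.0856). FKBPL, an immunophilin-like protein, overlapped between groups in both lines as well (4.91 ± 1.62, adjusted p = 0.0172). RSC1A1, which lies within the DDI2 locus on the same strand so that their reads cannot be told apart where they overlap, was listed at 0 in all OCI-AML2 controls. With ARM165 it had 178, 176, 62.7 and 71.4 reads in that line. MOLM14 had 465, 435, 210.4 and 338 with ARM165 and 344, 307, 513 and 307 with DMSO, and the adjusted p of the difference was 0.00269. INO80B-WBP1 and LY75-CD302 are read-through transcripts whose exons belong to neighbouring genes as well, so estimated counts can move between them. Their differences were 8.72 ± 2.45 and -3.45 ± 1.33, with adjusted p = 0.00580 and 0.0403, and the second was not called in 12 of the 16 fits that left out 1 library (adjusted p 0.00102 to 0.109).

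**Figure D3:**
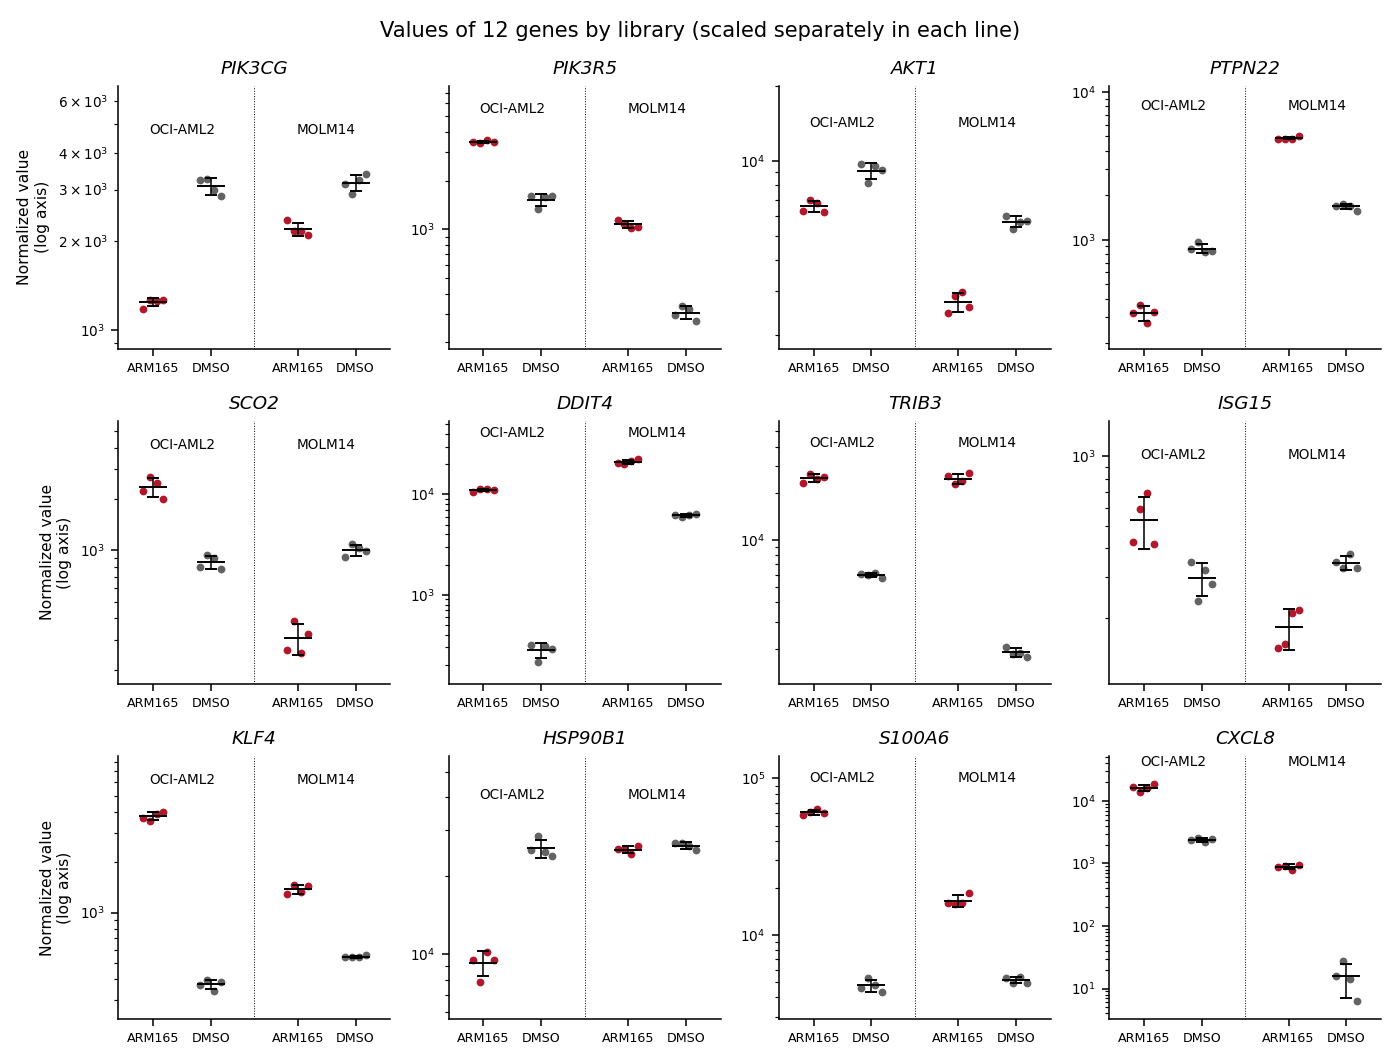
Normalized values (log axis) of 12 genes in each library, with the mean and SD of 4 libraries in black, for OCI-AML2 at the left and MOLM14 at the right of each panel (ARM165 in red, DMSO in grey). The lines were scaled separately, so only the steps between ARM165 and DMSO compare: PTPN22 falls in OCI-AML2 and rises in MOLM14, and SCO2 does the reverse.

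Immediate early genes and feedback regulators of the ERK pathway, which are transcribed when RAS and ERK signal, more often rose than fell in both lines. The median change of the 25 members tested was 1.03 in OCI-AML2 and 0.58 in MOLM14. Responses were higher in OCI-AML2 for 11 members and lower for 2, against 24.3% and 18.1% of all genes, with a median difference of 0.25. Both rescalings gave 4 lower members. SPRY2, a feedback inhibitor of receptor signalling, had 9739, 8912, 9649 and 9852 reads with ARM165 and 2133, 2191, 1909 and 2284 with DMSO in OCI-AML2. Values in MOLM14 were 3870.1, 4021, 4501 and 4553 with ARM165 and 3120.3, 3086, 3273 and 3238 with DMSO. It rose in both lines without overlap, and further in OCI-AML2 (1.75 ± 0.086, adjusted p = 1.19e-13). DUSP5, a phosphatase that inactivates nuclear ERK, rose by 3.25 ± 0.088 in OCI-AML2 and 0.98 ± 0.088 in MOLM14, a difference of 2.27 ± 0.12 (adjusted p = 8.30e-13). PHLDA1, a feedback gene induced by several stresses, rose from low control levels in both lines. It had 8173, 7816, 8098 and 9129 reads with ARM165 and 59.8, 88.5, 56.9 and 68.4 with DMSO in OCI-AML2. The values were 12606, 12537, 11656 and 13510.4 with ARM165 and 336, 394, 380.2 and 333 with DMSO in MOLM14. The rise was larger in OCI-AML2 (1.80 ± 0.15, adjusted p = 1.33e-09).

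Genes of the ATF4 pathway, which restores amino acid supply and redox balance when translation initiation is restrained, also responded mostly higher in OCI-AML2. Of 31 members tested, 29 rose in OCI-AML2 and 24 in MOLM14, against 36.5% and 35.0% of all genes. In OCI-AML2 the response was higher for 18 and lower for 2, 64.5% in all against 42.4% of all genes. The median difference was 0.58, from median changes of 1.61 in OCI-AML2 and 0.89 in MOLM14. The mRNA of ATF4 itself, the transcription factor, rose in both lines. It had 238233, 234868, 243682 and 248103 reads with ARM165 and 53775, 53590.5, 56464 and 51507 with DMSO in OCI-AML2. MOLM14 cells held 76300.1, 73732, 77918 and 85369 with ARM165 and 51846, 49615, 50573 and 49208 with DMSO. No groups overlapped, and the difference was 1.53 ± 0.068 (adjusted p = 2.79e-14).

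DDIT4, which encodes the mTORC1 inhibitor REDD1, gave the smallest adjusted p of the list. OCI-AML2 libraries held 10684, 11279, 11214 and 10974 reads with ARM165 and 317, 213, 309 and 285 with DMSO. MOLM14 libraries gave 20684, 19924, 21522 and 22508 with ARM165 and 6302, 5947, 6224 and 6349 with DMSO. Treated libraries were above controls in both lines, by 5.31 ± 0.089 in OCI-AML2 and 1.77 ± 0.089 in MOLM14, a difference of 3.54 ± 0.13 (adjusted p = 1.14e-15). TRIB3, a pseudokinase that binds AKT and dampens ATF4, was 1 of the 2 members lower in OCI-AML2. It had 23256, 26612, 24928 and 25586 reads with ARM165 and 6066, 6018, 6164 and 5682 with DMSO in OCI-AML2. For MOLM14 the values were 25941, 22828, 23950.5 and 26858 with ARM165 and 2073, 1855, 1896 and 1783 with DMSO. It rose in both lines and further in MOLM14 (-1.64 ± 0.097, adjusted p = 3.59e-12). The other was SLC7A11, the cystine transporter, which rose by 0.59 ± 0.082 in OCI-AML2 and 1.58 ± 0.082 in MOLM14 (adjusted p = 2.41e-07). ALDH1L2, a mitochondrial folate enzyme, rose further in OCI-AML2 (1.22 ± 0.077, adjusted p = 1.06e-11). PHGDH, the first enzyme of serine synthesis, was the single opposite call, with 0.67 ± 0.050 in OCI-AML2 and -0.19 ± 0.050 in MOLM14 (difference 0.86 ± 0.071, adjusted p = 8.71e-10). The PHGDH groups overlapped in MOLM14, where summed normalized reads were lower with ARM165. The direction of so small a fall may rest on scaling, which was not tested. With equal totals the PHGDH difference was 0.71. SLC7A11 and PHGDH were named after their values were seen.

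Targets of NRF2, the transcription factor that induces antioxidant and detoxifying enzymes, mostly had a higher response in OCI-AML2. Of 20 members, 14 were higher and 2 lower in OCI-AML2, against 24.3% and 18.1% of all genes, with a median difference of 0.56. SRXN1, which repairs oxidized peroxiredoxins, had 14551, 13696, 14055 and 15143 reads with ARM165 and 3764, 3787, 3639.8 and 3418 with DMSO in OCI-AML2. In MOLM14 it had 4301, 3949, 3859.7 and 4345 with ARM165 and 2714, 2497, 2325 and 2452 with DMSO. It rose in both lines without overlap, by 1.98 ± 0.053 in OCI-AML2 and 0.72 ± 0.053 in MOLM14 (difference 1.25 ± 0.074, adjusted p = 3.59e-12). NQO1, a quinone reductase, rose by 2.10 ± 0.057 in OCI-AML2 and 1.29 ± 0.057 in MOLM14 (adjusted p = 2.45e-08). GSR, glutathione reductase, rose in OCI-AML2 (0.18 ± 0.066) and fell in MOLM14 (-0.88 ± 0.066), a difference of 1.06 ± 0.093 (adjusted p = 3.04e-09). HMOX1, haem oxygenase, and SLC7A11 were the 2 members lower in OCI-AML2. HMOX1, named after its values were seen, had 10199.8, 9604, 9259 and 9753 reads with ARM165 and 48.9, 53.3, 58.9 and 63.8 with DMSO in OCI-AML2. The MOLM14 libraries held 14048, 14694, 13334 and 14890.3 with ARM165 and 43.4, 43.5, 41.2 and 42.2 with DMSO. Both lines gained it from low levels, MOLM14 further (-0.94 ± 0.22, adjusted p = 0.00126).

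**Figure D4:**
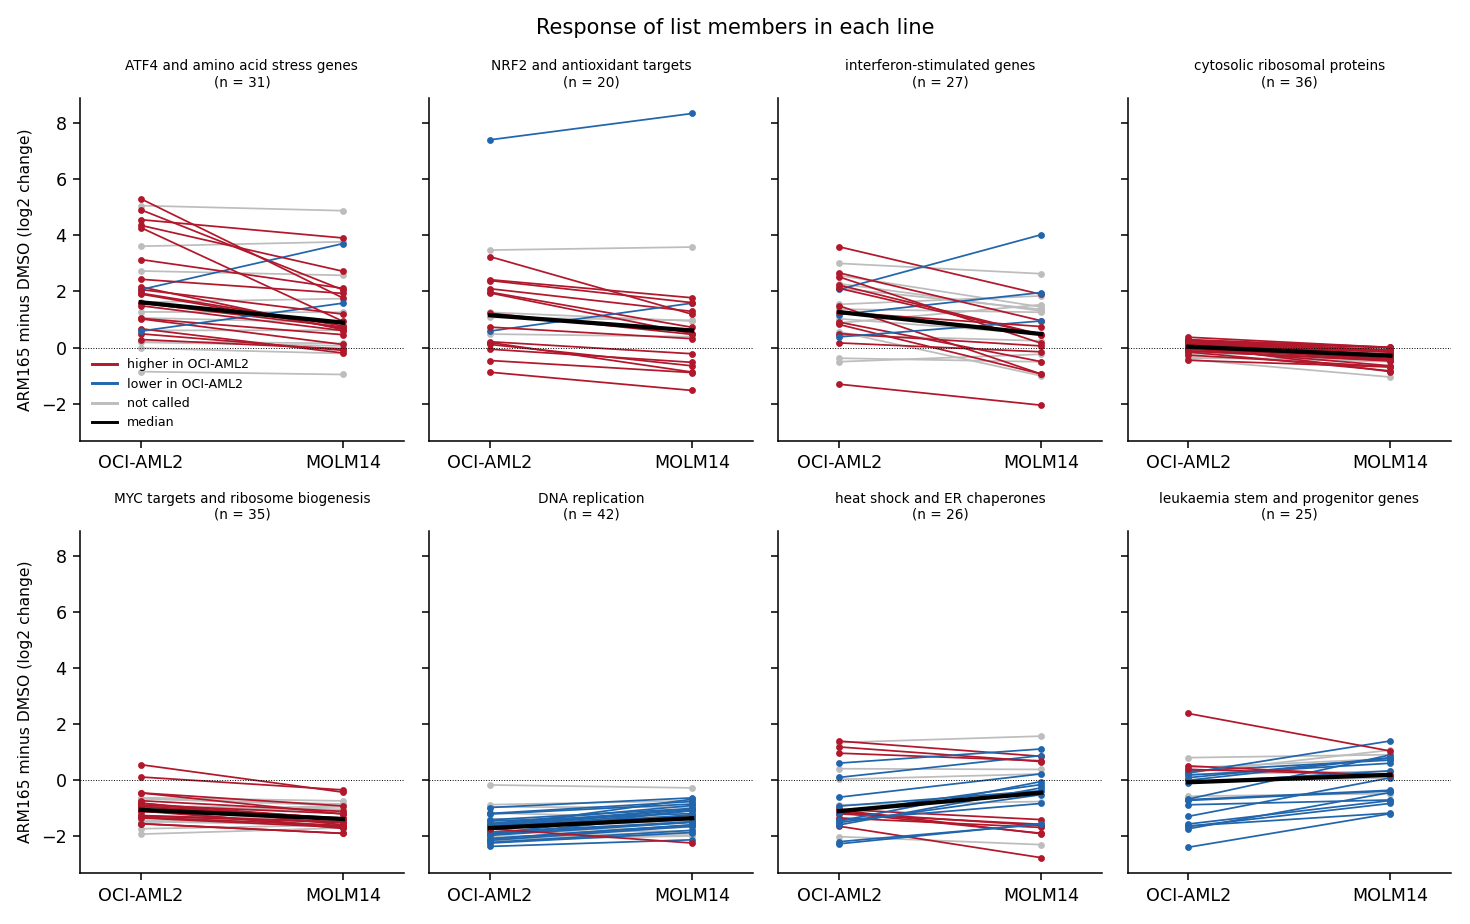
Change with ARM165 (log2) of the members of 8 gene lists in OCI-AML2 (left of each panel) and MOLM14 (right), each line being 1 gene, red where the response is called higher in OCI-AML2, blue where lower and grey where not called, with the median in black. The median of the ATF4 list is 1.61 in OCI-AML2 and 0.89 in MOLM14, and that of the DNA replication list is -1.71 in OCI-AML2 and -1.36 in MOLM14.

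The p53 list split. p53 induces genes of cell cycle arrest, DNA repair and cell death. Of 27 members tested, 24 rose in OCI-AML2 and 25 in MOLM14, against 36.5% and 35.0% of all genes. The response was higher in OCI-AML2 for 10 and lower for 6, against 24.3% and 18.1% of all genes. With equal totals the counts were 8 and 7. CDKN1A, the CDK inhibitor p21, had 16914, 17092, 17476 and 16941 reads with ARM165 and 394, 356, 351 and 391 with DMSO in OCI-AML2. Its MOLM14 values were 44414, 44078, 43956 and 48929 with ARM165 and 7382, 6767, 6880.3 and 6912 with DMSO. It rose in both lines, by 5.52 ± 0.075 in OCI-AML2 and 2.70 ± 0.075 in MOLM14 (difference 2.82 ± 0.11, adjusted p = 2.05e-15). SESN2, an inhibitor of mTORC1 that ATF4 also induces, rose further in OCI-AML2 (1.64 ± 0.11, adjusted p = 4.95e-11), as did the death receptor gene TNFRSF10B (1.24 ± 0.087, adjusted p = 6.62e-11). RRM2B, the p53-induced subunit of ribonucleotide reductase, rose further in MOLM14. It had 701, 588, 717 and 808 reads with ARM165 and 474, 462, 421 and 389 with DMSO in OCI-AML2. In MOLM14 the values were 2533, 2595, 2435 and 2885 with ARM165 and 579, 645, 630.0 and 687 with DMSO. The groups were apart in both lines, and the difference was -1.36 ± 0.14 (adjusted p = 2.31e-08). MDM2, FAS, SESN1, DDB2 and AEN were the other members with a lower response in OCI-AML2.

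In the BCL2 family, which sets the threshold for mitochondrial cell death, 7 of 14 members were higher and 2 lower in OCI-AML2, against 24.3% and 18.1% of all genes. Quantile normalization gave 7 and 3, and equal totals 5 and 4. MCL1, a short-lived inhibitor of cell death, rose in both lines. It had 33160.0, 29641, 31309 and 35132 reads with ARM165 and 10310.3, 11902, 9805 and 10437 with DMSO in OCI-AML2. MOLM14 had 19046, 18915, 18713 and 20014 with ARM165 and 13069, 12958, 13198 and 13581 with DMSO. The rise was larger in OCI-AML2 (1.07 ± 0.076, adjusted p = 8.08e-11). BCL2, the target of venetoclax, fell in both lines and further in OCI-AML2. Its values were 3192, 3208, 3057 and 3258 with ARM165 and 9828, 9994, 9235 and 8658 with DMSO in OCI-AML2. They were 4802, 4576, 4624 and 5396 with ARM165 and 8065, 7844, 8265 and 7898 with DMSO in MOLM14. No treated library reached a control, and the difference was -0.84 ± 0.069 (adjusted p = 9.94e-10). BCL2A1, a relative of MCL1 in leukocytes, fell further in MOLM14 (-0.49 ± 0.095 in OCI-AML2 and -1.81 ± 0.095 in MOLM14, adjusted p = 2.52e-08). BMF, a death-promoting member, rose further in MOLM14 (2.57 ± 0.11 in OCI-AML2 and 3.81 ± 0.11 in MOLM14, adjusted p = 1.07e-06).

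Interferon-stimulated genes, which respond to STAT2 and interferon regulatory factors, included 4 of the opposite calls. Of 27 members tested, 22 rose and 3 fell in OCI-AML2, and 14 rose and 6 fell in MOLM14. Among all genes, 36.5% rose and 33.0% fell in OCI-AML2, and 35.0% rose and 34.0% fell in MOLM14. The response was higher in OCI-AML2 for 12 and lower for 3, against 24.3% and 18.1% of all genes. The median difference was 0.55, against 0.044 for all genes. The classical element at such genes, the interferon-stimulated response element, holds 2 copies of GAAA parted by 2 bases of any kind. This arrangement was searched on both strands in the 250 bases before the gene start given by RefSeq on GRCh38.p14. It stood in 15 of the 22 list members with a RefSeq promoter and in 3.07% of all 27305 promoters. Of the 15 genes, 11 were tested and 6 had a called difference, against 42.4% of all genes. The stretch around the matches is shown for these 6, to give the letters beside their values, written 5′ to 3′ on the gene's strand with matches in capitals (GAAA runs read as TTTC where the match is on the other strand). One of the 3 matches of IFIH1 lies outside the stretch shown.
ISG15: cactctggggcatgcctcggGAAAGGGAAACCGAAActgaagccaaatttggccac
IFIT1: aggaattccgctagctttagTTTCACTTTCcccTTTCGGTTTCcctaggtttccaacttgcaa
IFITM3: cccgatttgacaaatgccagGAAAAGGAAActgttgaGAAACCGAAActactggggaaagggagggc
BST2: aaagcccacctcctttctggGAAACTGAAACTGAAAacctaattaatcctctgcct
IFIH1: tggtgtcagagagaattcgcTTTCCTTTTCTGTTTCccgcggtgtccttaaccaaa
ISG20: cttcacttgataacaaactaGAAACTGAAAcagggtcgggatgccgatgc

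The stretches lie at chr1:1013364-1013419 (+ strand) for ISG15, chr10:89392487-89392549 (+ strand) for IFIT1, chr11:320866-320932 (- strand) for IFITM3, chr19:17405725-17405780 (- strand) for BST2, chr2:162318808-162318863 (- strand) for IFIH1 and chr15:88638927-88638976 (+ strand) for ISG20, all within the promoter before the first exon. The first 4 responded higher in OCI-AML2 and the other 2 lower. They were picked for their called differences, and no test relates the element to a direction. A match is a description of the sequence, not a measured binding site. ISG15, a ubiquitin-like modifier, had 427, 590.2, 694 and 417 reads with ARM165 and 348, 236, 323 and 279 with DMSO in OCI-AML2. Values in MOLM14 were 147, 154, 209.6 and 216 with ARM165 and 349, 329, 379 and 328 with DMSO. It rose in OCI-AML2 and fell in MOLM14, without overlap in either (difference 1.77 ± 0.24, adjusted p = 1.89e-06). IFIT1, which binds viral RNA, rose by 2.11 ± 0.18 in OCI-AML2 and 0.45 ± 0.18 in MOLM14 (adjusted p = 9.99e-06). IFITM3, a restriction factor for entering viruses, had 82.8, 140.2, 214 and 107 reads with ARM165 and 23.9, 39.3, 14.6 and 35.5 with DMSO in OCI-AML2, and its MOLM14 change of 0.46 ± 0.41 was not called. The difference was 1.77 ± 0.58 (adjusted p = 0.0158).

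BST2, which tethers viruses to the cell surface, fell in both lines and less in OCI-AML2. It had 427, 511, 579 and 422 reads with ARM165 and 1113, 1212, 1242 and 1206 with DMSO in OCI-AML2. For MOLM14 the values were 399, 413, 461 and 485 with ARM165 and 1848, 1771, 1845 and 1852 with DMSO. Its difference was 0.75 ± 0.13 (adjusted p = 6.12e-05). IFIH1, the RNA sensor MDA5, rose further in MOLM14 (0.38 ± 0.12 in OCI-AML2 and 0.95 ± 0.12 in MOLM14, adjusted p = 0.00924). ISG20, an exonuclease, rose by 2.07 ± 0.35 in OCI-AML2 and 4.03 ± 0.35 in MOLM14 (difference -1.96 ± 0.50, adjusted p = 0.00256). The last 5 of these genes were named for their promoters after their values were seen. Other motifs were searched in the same way in other lists. TGATGNAA stood in 3 of 22 promoters of the ATF4 list and 3.19% of all promoters. TCACNCCAC stood in 1 of 19 sterol promoters and 0.875% of all, and TGACNNNGC in 4 of 14 NRF2 promoters and 11.0% of all. The promoters of the lists were not sampled at random, so no test was made.

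IRF1, OAS2 and DDX58 were the other members of the interferon list named by rule. IRF1, a transcription factor of the interferon response, rose in both lines. Its OCI-AML2 values were 5595, 5844, 5644 and 5529 with ARM165 and 522, 445, 458 and 446 with DMSO. Its MOLM14 values were 3721, 3769, 3695 and 4138 with ARM165 and 1009, 1050.0, 1016 and 1038 with DMSO. The rise was larger in OCI-AML2 (1.70 ± 0.091, adjusted p = 5.43e-13). OAS2, which makes the activator of RNase L, rose in OCI-AML2 and fell in MOLM14. OCI-AML2 held 421, 657, 749 and 489 reads with ARM165 and 207, 208, 212 and 176 with DMSO. MOLM14 libraries gave 320.3, 297, 310.1 and 326 with ARM165 and 513, 544, 721 and 664 with DMSO. Groups were apart in opposite directions, a difference of 2.44 ± 0.21 (adjusted p = 2.77e-09). DDX58, the RNA sensor RIG-I, did likewise (0.90 ± 0.093 in OCI-AML2 and -0.50 ± 0.093 in MOLM14, adjusted p = 8.35e-09).

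The mRNAs of cholesterol synthesis genes mostly fell in both lines and showed no common direction in the difference. Of 25 members tested, 23 fell in OCI-AML2 and 22 in MOLM14, against 33.0% and 34.0% of all genes. Of these 25, 5 were higher and 5 lower in OCI-AML2, 40% in all against 42.4% of all genes, and 8 were lower with equal totals. The median difference was 0.00031 and turned to -0.047 with quantile normalization and -0.16 with equal totals. Within the pathway, a grouping made after the values were seen, 3 of 20 enzymes were higher and 4 lower in OCI-AML2. The shares among all genes were 24.3% and 18.1%. The other 13 enzymes had no called difference, and with equal totals 7 enzymes were lower. DHCR7, the last reductase of the pathway, fell, with changes of -2.20 ± 0.11 in OCI-AML2 and -1.98 ± 0.11 in MOLM14, with a difference of -0.21 ± 0.15 that was not called (95% interval -0.52 to 0.095).

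INSIG1, which retains the sterol sensor in the endoplasmic reticulum, fell in both lines and further in MOLM14. It had 4159.6, 3800.0, 4246 and 4329.8 reads with ARM165 and 5274, 5556, 4819 and 5039 with DMSO in OCI-AML2. The MOLM14 libraries held 1252, 1301, 1384 and 1362 with ARM165 and 3680.5, 3381, 3609.9 and 3733 with DMSO. The groups were apart in both, and the difference was 1.12 ± 0.085 (adjusted p = 2.45e-10). SQLE, squalene epoxidase, also fell further in MOLM14 (-0.49 ± 0.10 in OCI-AML2 and -1.84 ± 0.10 in MOLM14, adjusted p = 6.69e-08). STARD4, a cholesterol carrier, fell in OCI-AML2 (-1.05 ± 0.11) and was not called in MOLM14 (-0.13 ± 0.11, adjusted p of the difference = 3.19e-05).

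Of 14 genes of fatty acid synthesis, 7 had a higher response in OCI-AML2, 2 a lower one and 5 no called difference, against 24.3% and 18.1% of all genes higher and lower. The median difference was 0.48, and single differences reached down to -1.74. SCD, the enzyme that makes oleate, had 21578, 20265, 21262 and 20043 reads with ARM165 and 26584, 26586, 23138 and 23688 with DMSO in OCI-AML2. Treated MOLM14 libraries held 20590.3, 20032, 20959 and 22694, against 63747, 61883, 68394 and 67214 in controls. It fell in both lines, with changes of -0.26 ± 0.051 in OCI-AML2 and -1.63 ± 0.051 in MOLM14 (difference 1.37 ± 0.072, adjusted p = 4.53e-13). FADS2, a desaturase of polyunsaturated fatty acids, fell, with changes of -1.56 ± 0.13 in OCI-AML2 and -3.41 ± 0.13 in MOLM14 (adjusted p = 2.29e-08). Its neighbour FADS1 fell, with changes of -1.27 ± 0.087 in OCI-AML2 and -2.30 ± 0.087 in MOLM14 (adjusted p = 3.77e-07). SREBF1, the transcription factor of lipid synthesis, rose in OCI-AML2 (0.61 ± 0.10) and fell in MOLM14 (-0.50 ± 0.10), a difference of 1.11 ± 0.14 (adjusted p = 1.18e-06).

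Genes of cholesterol export and other LXR targets were higher in OCI-AML2 for 7 of 12 members and lower for 1, against 24.3% and 18.1% of all genes. ABCA1, the cholesterol exporter, had 416, 381, 350.0 and 427 reads with ARM165 and 2.9, 5.04, 3.7 and 5.57 with DMSO in OCI-AML2. MOLM14 had 99.4, 93.4, 106 and 141 with ARM165 and 5.73, 9.41, 14.2 and 11.5 with DMSO. It rose in both lines from control values under 15, and further in OCI-AML2 (2.89 ± 0.50, adjusted p = 4.65e-05). LPCAT3, which remodels phospholipids, was not called in OCI-AML2 (0.14 ± 0.081) and fell in MOLM14 (-0.48 ± 0.081, adjusted p of the difference = 0.000106). SCARB1, the receptor for high-density lipoprotein, was the 1 lower member (-0.49 ± 0.090, adjusted p = 9.78e-05).

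Glycolysis genes mostly fell in both lines. In OCI-AML2, 15 of 23 members fell and 6 rose, and in MOLM14 16 fell and 7 rose. Among all genes, 33.0% fell and 36.5% rose in OCI-AML2, and 34.0% fell and 35.0% rose in MOLM14. Responses were higher in OCI-AML2 for 12 members and lower for 2, against 24.3% and 18.1% of all genes. The counts became 10 and 5 with quantile normalization and 8 and 6 with equal totals. PKM, pyruvate kinase, had 87509, 91280.2, 87038 and 82056 reads with ARM165 and 63484, 56659.8, 60642 and 56938 with DMSO in OCI-AML2. Its MOLM14 values were 17453, 16836, 17895 and 18912 with ARM165 and 35663, 33421, 34986 and 35355 with DMSO. It rose in OCI-AML2 and fell in MOLM14 without overlap (difference 1.52 ± 0.070, adjusted p = 4.99e-14). HK2, hexokinase 2, which starts glycolysis, did the reverse. It had 5911, 5901, 5929 and 6425 reads with ARM165 and 9573, 9184, 8581 and 8759 with DMSO in OCI-AML2. Values in MOLM14 were 8286, 7982, 7643 and 8749 with ARM165 and 6097, 6009.5, 6242 and 5917 with DMSO. Groups were again apart, a difference of -1.01 ± 0.065 (adjusted p = 1.40e-11). SLC2A3, a glucose transporter, rose further in OCI-AML2 (1.43 ± 0.12, adjusted p = 1.87e-09), as did PFKFB3, which makes the activator of phosphofructokinase (0.71 ± 0.090, adjusted p = 7.59e-07).

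Hypoxia-linked genes were higher in OCI-AML2 for 5 of 16 members and lower for 4, against 24.3% and 18.1% of all genes. The median difference of 0.088 turned to -0.070 with equal totals. VEGFA, the vascular growth factor, rose by 3.10 ± 0.060 in OCI-AML2 and 2.24 ± 0.060 in MOLM14 (adjusted p = 1.65e-08). BHLHE40, a transcriptional repressor, rose by 1.67 ± 0.070 in OCI-AML2 and 0.46 ± 0.070 in MOLM14 (adjusted p = 7.00e-10). NDRG1, a stress gene, fell in OCI-AML2 (-0.23 ± 0.071) and rose in MOLM14 (0.87 ± 0.071), a difference of -1.10 ± 0.10 (adjusted p = 4.80e-09).

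Most mRNAs of MYC targets and ribosome biogenesis genes fell in both lines. Of 35 members tested, 33 fell in OCI-AML2 and 35 in MOLM14, against 33.0% and 34.0% of all genes. In OCI-AML2 the response was higher for 19 and lower for 0, against 24.3% and 18.1% of all genes, and 16 had no called difference. Quantile normalization gave 16 higher and 2 lower, and equal totals 13 and 5. The median change was -1.06 in OCI-AML2 and -1.39 in MOLM14, a median difference of 0.28. PES1, a factor of large subunit assembly, had 3778, 3800.3, 3643 and 3719 reads with ARM165 and 5097, 4889, 5568 and 4981 with DMSO in OCI-AML2. Its values in MOLM14 were 1961, 1781, 2234 and 1909 with ARM165 and 4568, 4409.6, 4675 and 4556 with DMSO. It fell without overlap in both lines (difference 0.75 ± 0.078, adjusted p = 3.98e-08). UTP20 and RRP9, factors of small subunit processing, fell further in MOLM14 as well, with differences of 0.78 ± 0.10 (adjusted p = 8.64e-07) and 0.67 ± 0.099 (adjusted p = 7.86e-06). RRP12, a ribosome export factor, was the opposite member, with 0.55 ± 0.052 in OCI-AML2 and -0.43 ± 0.052 in MOLM14 (adjusted p = 1.66e-10).

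The mRNAs of the ribosomal proteins themselves split in OCI-AML2 and mostly fell in MOLM14. Of 36 members, 10 rose and 10 fell in OCI-AML2, and 0 rose and 29 fell in MOLM14. Among all genes, 36.5% rose and 33.0% fell in OCI-AML2, and 35.0% rose and 34.0% fell in MOLM14. The response was higher in OCI-AML2 for 25 and lower for 0, against 24.3% and 18.1% of all genes. The counts were 14 and 5 with quantile normalization and 18 and 0 with equal totals. RPL3 had 93513, 98161, 97409 and 96009 reads with ARM165 and 92518, 91715, 93806 and 89056 with DMSO in OCI-AML2, where the groups overlapped. For MOLM14 the values were 70264, 67902, 79196 and 78979.6 with ARM165 and 136826, 131462, 136675 and 132637 with DMSO. The difference was 0.93 ± 0.071 (adjusted p = 2.45e-10). RPL7A, RPL14 and RPLP0, of the large subunit like RPL3, had differences of 0.67 ± 0.072, 0.62 ± 0.082 and 0.48 ± 0.070 (adjusted p = 6.84e-08, 1.49e-06 and 6.04e-06). RPL7, RPL11, RPL19, RPS3A and RPS6 rose in OCI-AML2 and fell in MOLM14. The median change of the list was only 0.030 in OCI-AML2 and -0.29 in MOLM14. Whether the directions of these 5 genes rest on scaling was not tested. Ribosomal protein genes have many processed pseudogenes, so their estimated counts are uncertain.

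DNA replication genes fell in both lines. All 42 members tested, among them the MCM helicase genes, fell in OCI-AML2 and in MOLM14, against 33.0% and 34.0% of all genes. The response was lower in OCI-AML2 for 25 members and higher for 1, CCNE1, against 18.1% and 24.3% of all genes. The median difference was -0.35. PRIM1, the primase subunit that starts new strands, had 321, 296, 320.1 and 322 reads with ARM165 and 1058, 1019.6, 925 and 996 with DMSO in OCI-AML2. MOLM14 libraries gave 1624, 1508, 1628 and 1975 with ARM165 and 2652, 2686, 2742 and 2660.3 with DMSO. The fall was clear of overlap in both lines and larger in OCI-AML2 (-0.98 ± 0.10, adjusted p = 4.51e-08). ORC1, of the origin recognition complex, differed by -0.65 ± 0.075 (adjusted p = 2.13e-07). MCM5, of the replicative helicase, differed by -0.62 ± 0.078 (adjusted p = 7.29e-07), and RFC4, of the clamp loader, by -0.64 ± 0.086 (adjusted p = 1.64e-06).

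All 34 mitotic genes tested fell in both lines, against 33.0% of all genes in OCI-AML2 and 34.0% in MOLM14. Of the mitotic genes, 32.4% had a called difference, fewer than the 42.4% of all genes. The response was lower in OCI-AML2 for 10 and higher for 1, while 19 were lower with quantile normalization and 23 with equal totals. NDC80, of the kinetochore, fell, with changes of -0.98 ± 0.065 in OCI-AML2 and -0.29 ± 0.065 in MOLM14 (adjusted p = 1.68e-06). MYBL2 and FOXM1, transcription factors of the cell cycle, differed by -0.42 ± 0.076 (adjusted p = 9.30e-05) and -0.40 ± 0.082 (adjusted p = 0.000326). BIRC5, survivin, differed by -0.40 ± 0.090 (adjusted p = 0.000858). Among CDK inhibitors, cyclins and pocket proteins, 4 of 13 were higher and 7 lower, against 24.3% and 18.1% of all genes. Quantile normalization gave 3 higher and 8 lower, and equal totals 2 and 8. CCND3, cyclin D3, had 2300.5, 2520.1, 2377 and 2376 reads with ARM165 and 5999.9, 6095, 6050.4 and 5702 with DMSO in OCI-AML2. In MOLM14 it had 2506, 2268, 2698 and 2677 with ARM165 and 3426, 3225, 3339 and 3355 with DMSO. It fell in both lines and further in OCI-AML2 (-0.92 ± 0.070, adjusted p = 2.50e-10). CDKN2C, the inhibitor p18, also fell further in OCI-AML2 (-0.68 ± 0.073, adjusted p = 6.34e-08). RB1, the retinoblastoma protein, rose further in MOLM14 (-0.53 ± 0.097, adjusted p = 9.71e-05).

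Nuclear genes of oxidative phosphorylation mostly fell in both lines. Of 40 members, 9 were higher and 3 lower in OCI-AML2, 30% in all against 42.4% of all genes. The split turned to 2 and 12 with equal totals, and the median difference of 0.081 to -0.078. Named by rule, ATP5F1A of ATP synthase differed by -0.40 ± 0.076 (adjusted p = 0.000151) and COX4I1 of cytochrome c oxidase by -0.38 ± 0.086 (adjusted p = 0.00108). SDHA and SDHC, of succinate dehydrogenase, differed by 0.33 ± 0.071 (adjusted p = 0.000569) and 0.44 ± 0.10 (adjusted p = 0.00131). Of 13 mitochondrially encoded mRNAs, 4 were lower in OCI-AML2 and 0 higher, 30.8% in all against 42.4% of all genes. With quantile normalization 9 were lower, and with equal totals 9. MT-ND2 and MT-ND3 of complex I differed by -0.30 ± 0.080 (adjusted p = 0.00328) and -0.34 ± 0.098 (adjusted p = 0.00712). MT-CYB of complex III differed by -0.27 ± 0.080 (adjusted p = 0.00745), and MT-CO1 of complex IV by -0.36 ± 0.069 (adjusted p = 0.000171), a call lost with quantile normalization, which set its values equal. The mitochondrial share of reads was 5.02 to 5.91% with ARM165 and 7.20 to 8.11% with DMSO in OCI-AML2. It was 4.49 to 5.08% with ARM165 and 5.07 to 5.45% with DMSO in MOLM14, where the ranges overlap.

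Chaperones parted by compartment, a grouping made after the values were seen and given without a test. Over all 26 members, 10 were higher and 11 lower in OCI-AML2, against 24.3% and 18.1% of all genes. Of 10 cytosolic and mitochondrial heat shock genes, 7 were higher and 0 lower in OCI-AML2, with a median change of -1.15 in OCI-AML2 and -1.66 in MOLM14. Of 16 endoplasmic reticulum genes, 3 were higher and 11 lower, with medians of -0.77 in OCI-AML2 and 0.085 in MOLM14.

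HSPA8, the constitutive cytosolic HSP70, had 27732, 27213, 28906 and 28363 reads with ARM165 and 84771, 94153, 86902 and 85496 with DMSO in OCI-AML2. The MOLM14 libraries held 12411, 11699, 15042 and 14164 with ARM165 and 92663, 87844, 93116 and 88150.1 with DMSO. It fell in both lines and further in MOLM14 (1.12 ± 0.086, adjusted p = 2.76e-10). HSP90B1, the endoplasmic reticulum HSP90, fell in OCI-AML2 alone among the calls. It had 9492, 7854, 10252 and 9543 reads with ARM165 and 25090.1, 28361, 24585 and 23861 with DMSO in OCI-AML2. Its MOLM14 values were 25232, 25301, 24225 and 25985 with ARM165 and 26640.0, 26675, 25965 and 25008 with DMSO. The groups overlapped in MOLM14 and were apart in OCI-AML2 (-1.41 ± 0.087, adjusted p = 6.62e-12). PDIA4, a disulfide isomerase, fell, with changes of -1.52 ± 0.047 in OCI-AML2 and -0.52 ± 0.047 in MOLM14 (adjusted p = 2.85e-11). MANF, a secreted stress protein, fell, with changes of -1.60 ± 0.075 in OCI-AML2 and -0.27 ± 0.075 in MOLM14 (adjusted p = 5.73e-10). HYOU1, a chaperone related to HSP110, fell in OCI-AML2 (-0.61 ± 0.063) and rose in MOLM14 (0.22 ± 0.063, adjusted p of the difference = 5.85e-08). HSPA5, the endoplasmic reticulum HSP70 also called BiP, was 1 of the 3 higher members with XBP1 and HERPUD1, rising by 1.39 ± 0.053 in OCI-AML2 and 0.85 ± 0.053 in MOLM14 (adjusted p = 2.90e-06). HYOU1 and HSPA5 were named after their values were seen.

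Lysosome and autophagy genes were lower in OCI-AML2 for 13 of 32 members and higher for 3, against 18.1% and 24.3% of all genes, and equal totals gave 19 lower. In all, 50% were called, against 42.4% of all genes. ULK1, the kinase that starts autophagy, had 1887, 1866, 1800.3 and 1765 reads with ARM165 and 1909.5, 1665, 1852 and 1905 with DMSO in OCI-AML2. MOLM14 had 1490.4, 1345, 1530.1 and 1373 with ARM165 and 482, 499, 467 and 475 with DMSO. The groups overlapped in OCI-AML2 and were apart in MOLM14, where it rose (difference -1.57 ± 0.085, adjusted p = 6.24e-13). LAMP2, a lysosomal membrane protein, fell, with changes of -1.19 ± 0.066 in OCI-AML2 and -0.16 ± 0.066 in MOLM14 (adjusted p = 5.19e-09). SQSTM1, an autophagy receptor that NRF2 also induces, rose by 3.39 ± 0.047 in OCI-AML2 and 2.27 ± 0.047 in MOLM14 (adjusted p = 3.59e-12). ATG14, of the autophagy-specific lipid kinase complex, rose by 1.59 ± 0.063 in OCI-AML2 and 0.60 ± 0.063 in MOLM14 (adjusted p = 3.75e-09). CTSZ rose in OCI-AML2 and fell in MOLM14, and TPP1 did the reverse.

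Of 25 leukaemia stem and progenitor genes, 16 were lower and 3 higher in OCI-AML2, against 18.1% and 24.3% of all genes, with a median difference of -0.42 against 0.044 for all genes. GFI1, a repressor that sets granulocyte fate, had 4833, 5301, 5257 and 5278 reads with ARM165 and 13120.2, 12808, 12492 and 12228 with DMSO in OCI-AML2. Values in MOLM14 were 10766, 10421, 11412 and 10692 with ARM165 and 9826, 10591, 10179 and 10255 with DMSO. It fell in OCI-AML2 and its groups overlapped in MOLM14 (difference -1.38 ± 0.057, adjusted p = 8.23e-15). MYB, a transcription factor that KMT2A-rearranged leukaemia depends on, fell in both lines. Its values were 3310.5, 3057, 3379.9 and 3669.5 with ARM165 and 18129, 18459, 16843 and 17086 with DMSO in OCI-AML2. In MOLM14 they were 12319, 12164, 13812 and 13816 with ARM165 and 29559, 29250.1, 30567 and 29747 with DMSO. The fall was larger in OCI-AML2 (-1.20 ± 0.074, adjusted p = 6.82e-12).

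RUNX2, a transcription factor of the runt family, rose by 0.26 ± 0.056 in OCI-AML2 and 1.40 ± 0.056 in MOLM14 (adjusted p = 5.10e-11). JMJD1C, a chromatin protein, rose by 2.38 ± 0.067 in OCI-AML2 and 1.04 ± 0.067 in MOLM14 (adjusted p = 6.79e-11). HOXA3, a homeobox gene named after its values were seen, was the single opposite call, with -0.68 ± 0.14 in OCI-AML2 and 0.90 ± 0.14 in MOLM14 (adjusted p = 1.11e-06). FLT3, singled out because MOLM14 carries the mutated receptor, had 2171, 1796, 1965 and 1981 reads with ARM165 and 6623, 6856, 5715 and 5462 with DMSO in OCI-AML2. For MOLM14 the values were 10065, 10318, 10852 and 11439 with ARM165 and 23535, 23639, 24728 and 24399 with DMSO. It fell without overlap in both lines, and further in OCI-AML2 (-1.64 ± 0.063 against -1.18 ± 0.063 in MOLM14, difference -0.46 ± 0.089, adjusted p = 0.000184).

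Growth factor and cytokine receptors were lower in OCI-AML2 for 9 of 18 members and higher for 2, against 18.1% and 24.3% of all genes. Equal totals gave 11 lower and 0 higher. CSF3R, the receptor of granulocyte colony-stimulating factor, had 1459, 1935, 1771 and 1487 reads with ARM165 and 4751, 4710.4, 4749 and 4784 with DMSO in OCI-AML2. MOLM14 libraries gave 3042, 3155, 2964 and 2424 with ARM165 and 3070.2, 2612, 2542 and 2769 with DMSO. It fell in OCI-AML2, while its groups overlapped in MOLM14 (difference -1.60 ± 0.12, adjusted p = 2.79e-10). TNFRSF1B, a TNF receptor, differed by -1.05 ± 0.084 (adjusted p = 4.89e-10). IL6R, the interleukin 6 receptor, differed by -0.98 ± 0.083 (adjusted p = 1.38e-09), and PTAFR, the receptor of platelet-activating factor, by -0.93 ± 0.17 (adjusted p = 0.000111). All of these 3 fell in both lines.

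Monocyte genes were lower in OCI-AML2 for 10 of 22 members and higher for 4, against 18.1% and 24.3% of all genes, with a median difference of -0.57. Quantile normalization gave 8 lower and 5 higher. CD68, a lysosomal protein of macrophages, had 3817, 4642, 4586 and 3838 reads with ARM165 and 9412, 7071, 7868 and 8943 with DMSO in OCI-AML2. In MOLM14 the values were 4447, 4427, 5319 and 4921 with ARM165 and 3166, 3112, 3588 and 3233 with DMSO. It fell in OCI-AML2 and rose in MOLM14 (difference -1.52 ± 0.12, adjusted p = 5.89e-10). CD4, a coreceptor that monocytes also carry, fell, with changes of -2.02 ± 0.071 in OCI-AML2 and -0.23 ± 0.071 in MOLM14 (adjusted p = 1.28e-12). KLF4, a transcription factor of monocyte fate, rose in both lines. It had 3677, 3512, 3902 and 4015 reads with ARM165 and 369.5, 395, 340.0 and 385 with DMSO in OCI-AML2. In MOLM14 it had 1286, 1461, 1330.0 and 1434 with ARM165 and 542, 539, 541 and 557 with DMSO. The rise was larger in OCI-AML2 (2.00 ± 0.12, adjusted p = 3.59e-12). LYZ, lysozyme, fell in both lines and further in MOLM14. OCI-AML2 held 19648, 18050.0, 20148 and 21132 reads with ARM165 and 49041, 51633, 42051 and 47421 with DMSO. The MOLM14 libraries held 2498, 2511, 2823 and 2875 with ARM165 and 19841, 20039, 20814 and 20582 with DMSO. The difference was 1.66 ± 0.082 (adjusted p = 1.31e-13).

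Granule and S100 genes gave 9 lower and 6 higher in OCI-AML2 of 18, against 18.1% and 24.3% of all genes. S100A6, calcyclin, rose in both lines. It had 58242, 61048, 64002 and 59888 reads with ARM165 and 4566, 5339, 4830.2 and 4347 with DMSO in OCI-AML2. In MOLM14 its values were 15958, 15698, 15955 and 18704 with ARM165 and 5312, 4972, 5385 and 4945 with DMSO. The rise was larger in OCI-AML2 (1.99 ± 0.095, adjusted p = 7.80e-14). S100A8, a subunit of calprotectin, fell in both lines and further in MOLM14 (-1.83 ± 0.12 in OCI-AML2 and -4.08 ± 0.12 in MOLM14, adjusted p = 2.07e-10). CEBPE, the transcription factor of late granulocyte maturation, was the opposite member and was named after its values were seen. It had 1223, 1191, 1227 and 1159.8 reads with ARM165 and 4467, 3677, 4697 and 4242 with DMSO in OCI-AML2. MOLM14 had 27.3, 13.7, 21.6 and 59.3 with ARM165 and 7.88, 8.68, 12.2 and 3.45 with DMSO. The difference was -3.53 ± 0.59 (adjusted p = 3.32e-05).

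The 13 pan-myeloid markers used for the label check also moved, 8 lower and 1 higher in OCI-AML2, against 18.1% and 24.3% of all genes. Their summed level was 67209 to 70622 with ARM165 and 119617 to 128405 with DMSO in OCI-AML2. In MOLM14 it was 52083 to 60720.2 with ARM165 and 77698 to 82231 with DMSO. CEBPA, the transcription factor of granulocyte and monocyte progenitors, differed by -0.68 ± 0.077 (adjusted p = 1.61e-07). TYROBP, a signalling adaptor of myeloid receptors, fell in OCI-AML2 (-0.33 ± 0.089) and rose in MOLM14 (0.74 ± 0.089, adjusted p of the difference = 3.07e-07).

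NF-kB and cytokine genes had members far apart in both directions. Of 22, 7 were higher and 9 lower in OCI-AML2, against 24.3% and 18.1% of all genes. CXCL8, the neutrophil chemokine interleukin 8, had 16364, 13989, 16206 and 18419 reads with ARM165 and 2353, 2512, 2189 and 2471 with DMSO in OCI-AML2. Values in MOLM14 were 883, 927, 777 and 958 with ARM165 and 15.6, 27.7, 14.4 and 6.35 with DMSO. It rose in both lines, and further in MOLM14 relative to a low control level (-3.09 ± 0.40, adjusted p = 1.24e-06). OSM, oncostatin M, rose further in OCI-AML2 (4.08 ± 0.19 against 1.44 ± 0.19 in MOLM14, adjusted p = 2.21e-08). RELA, the p65 subunit of NF-kB, rose in OCI-AML2 (0.87 ± 0.066) and was not called in MOLM14 (0.12 ± 0.066, adjusted p of the difference = 6.61e-07). IL1RN, the interleukin 1 receptor antagonist, fell in OCI-AML2 (-1.03 ± 0.087) and was not called in MOLM14 (0.19 ± 0.087, adjusted p of the difference = 2.74e-08). TNFAIP3 was the opposite member.

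Of 14 genes of MHC class I presentation, 4 were higher and 2 lower in OCI-AML2, 42.9% in all against 42.4% of all genes. NLRC5, the class I transactivator, fell in both lines and further in OCI-AML2 (-1.03 ± 0.13, adjusted p = 8.81e-07). HLA-E, a ligand of natural killer receptors, rose further in OCI-AML2 (0.47 ± 0.069, adjusted p = 6.47e-06). PSMB8, an immunoproteasome subunit, fell further in MOLM14 (0.75 ± 0.18, adjusted p = 0.00176). ERAP2, which trims peptides, rose in OCI-AML2 and was not called in MOLM14 (1.31 ± 0.34, adjusted p = 0.00286). Its treated MOLM14 libraries nevertheless all lay below their controls. HLA genes share sequence, so their estimated counts are uncertain. In the class II list, 2 of 5 tested members were called, both higher, 40% against 42.4% of all genes. They were IFI30, a lysosomal thiol reductase (1.89 ± 0.19, adjusted p = 2.98e-08), and CIITA, the class II transactivator (1.27 ± 0.40, adjusted p = 0.0125).

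CRBN, the substrate receptor of the cereblon ubiquitin ligase, rose in both lines. It had 2189, 1976, 2136 and 2416 reads with ARM165 and 827, 988, 950.4 and 943 with DMSO in OCI-AML2. MOLM14 cells held 1628, 1603, 1373 and 1966 with ARM165 and 1445, 1239, 1483 and 1275 with DMSO, groups that overlapped. The rise was larger in OCI-AML2 (0.97 ± 0.13, adjusted p = 1.77e-06). IKZF1, a lymphoid and myeloid transcription factor, fell further in OCI-AML2 (-1.53 ± 0.051 in OCI-AML2 and -0.71 ± 0.051 in MOLM14, adjusted p = 3.10e-09). CUL4A, the scaffold of the ligase, fell in MOLM14 alone among the calls (0.56 ± 0.092, adjusted p = 3.24e-05). ZNF692, a zinc finger protein, fell in OCI-AML2 and was not called in MOLM14 (-0.46 ± 0.078, adjusted p = 3.59e-05). Over the 12 members tested, 3 were higher and 2 lower in OCI-AML2, 41.7% in all against 42.4% of all genes. The median difference of 0.072 turned to -0.052 with quantile normalization and -0.087 with equal totals.

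Replication-dependent histone mRNAs, most of which lack a poly(A) tail, had 4 higher and 2 lower of 19, 31.6% in all against 42.4% of all genes. HIST2H2BE and HIST1H2BN rose further in OCI-AML2, with differences of 1.95 ± 0.33 (adjusted p = 4.51e-05) and 1.34 ± 0.32 (adjusted p = 0.00144). HIST1H1C rose further in MOLM14 (-0.72 ± 0.23, adjusted p = 0.0145), and HIST1H4C rose in MOLM14 and was not called in OCI-AML2 (-3.82 ± 0.77, adjusted p = 0.000297). In MOLM14, HIST1H4C had 51.8, 86.3, 36.2 and 48.7 reads with ARM165 and 1.97, 0, 3.05 and 4.31 with DMSO. With controls so near 0, the size of its difference is uncertain. Reads of near-identical histone genes can be split between copies.

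Some defining markers of other cells were at or near 0 in both lines, while other markers on the same lists were expressed. CD3E, CD2, MS4A1, HBB and PF4, picked as defining genes, reached at most 7.76 reads in any of the 16 libraries. CD79A, also a B cell marker, averaged 8.30 with ARM165 and 19.5 with DMSO in MOLM14 and reached 34.7 at most. EPCAM, an epithelial marker, reached 10.2 at most. Of 15 T and NK markers, 5 averaged at least 10 reads with ARM165 and 5 with DMSO in OCI-AML2, and 8 with ARM165 and 6 with DMSO in MOLM14. Of 10 B cell markers, 4 did so with ARM165 and 5 with DMSO in OCI-AML2, and 6 with ARM165 and 8 with DMSO in MOLM14. NKG7, a granule protein of NK cells, averaged 567 with ARM165 and 807 with DMSO in OCI-AML2, and 401 with ARM165 and 504 with DMSO in MOLM14. The 15 T and NK markers summed to 1345 to 1459 with ARM165 and 2291 to 2652 with DMSO in OCI-AML2. In MOLM14 they summed to 5929 to 6409 with ARM165 and 4589 to 4743 with DMSO, and CD8A, a T cell coreceptor, averaged 1389.8 with ARM165 and 38.8 with DMSO. NCAM1, an adhesion molecule of NK cells and some AML, fell in OCI-AML2 (-0.94 ± 0.053) and rose in MOLM14 (0.14 ± 0.053), the 1 called member of the 4 tested (adjusted p = 5.30e-11). The 10 B cell markers summed to 119 to 170.1 with ARM165 and 180.1 to 236 with DMSO in OCI-AML2. In MOLM14 they summed to 3257 to 3687 with ARM165 and 1720.3 to 1949 with DMSO, of which FCRLA averaged 2713 with ARM165 and 82.1 with DMSO. PAX5 and TNFRSF13C, B lineage genes, were lower in OCI-AML2 (-0.99 ± 0.29, adjusted p = 0.00699, and -1.36 ± 0.55, adjusted p = 0.0474), and the second was not called in 13 of the 16 fits that left out 1 library (adjusted p 0.000696 to 0.126). Erythroid and megakaryocyte markers summed to 49.5 to 90.1 with ARM165 and 60.3 to 195 with DMSO in OCI-AML2, and to 280.4 to 360.2 with ARM165 and 172 to 209 with DMSO in MOLM14. GP1BA was their 1 tested member and was not called (-0.83 ± 0.50, adjusted p = 0.189). Of 4 epithelial and fibroblast markers tested 0 were called in the limma fit, MUC1 being the most abundant of those (-0.32 ± 0.34, adjusted p = 0.477). That list summed to 202 to 359 with ARM165 and 316 to 473 with DMSO in OCI-AML2, and to 4440 to 5150.1 with ARM165 and 3026 to 3432 with DMSO in MOLM14. Most of that MOLM14 sum was KRT18, a keratin, which averaged 3168 with ARM165 and 1917 with DMSO there and at most 2.38 in either OCI-AML2 group. Their part in the differences was not tested.

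**Figure D5:**
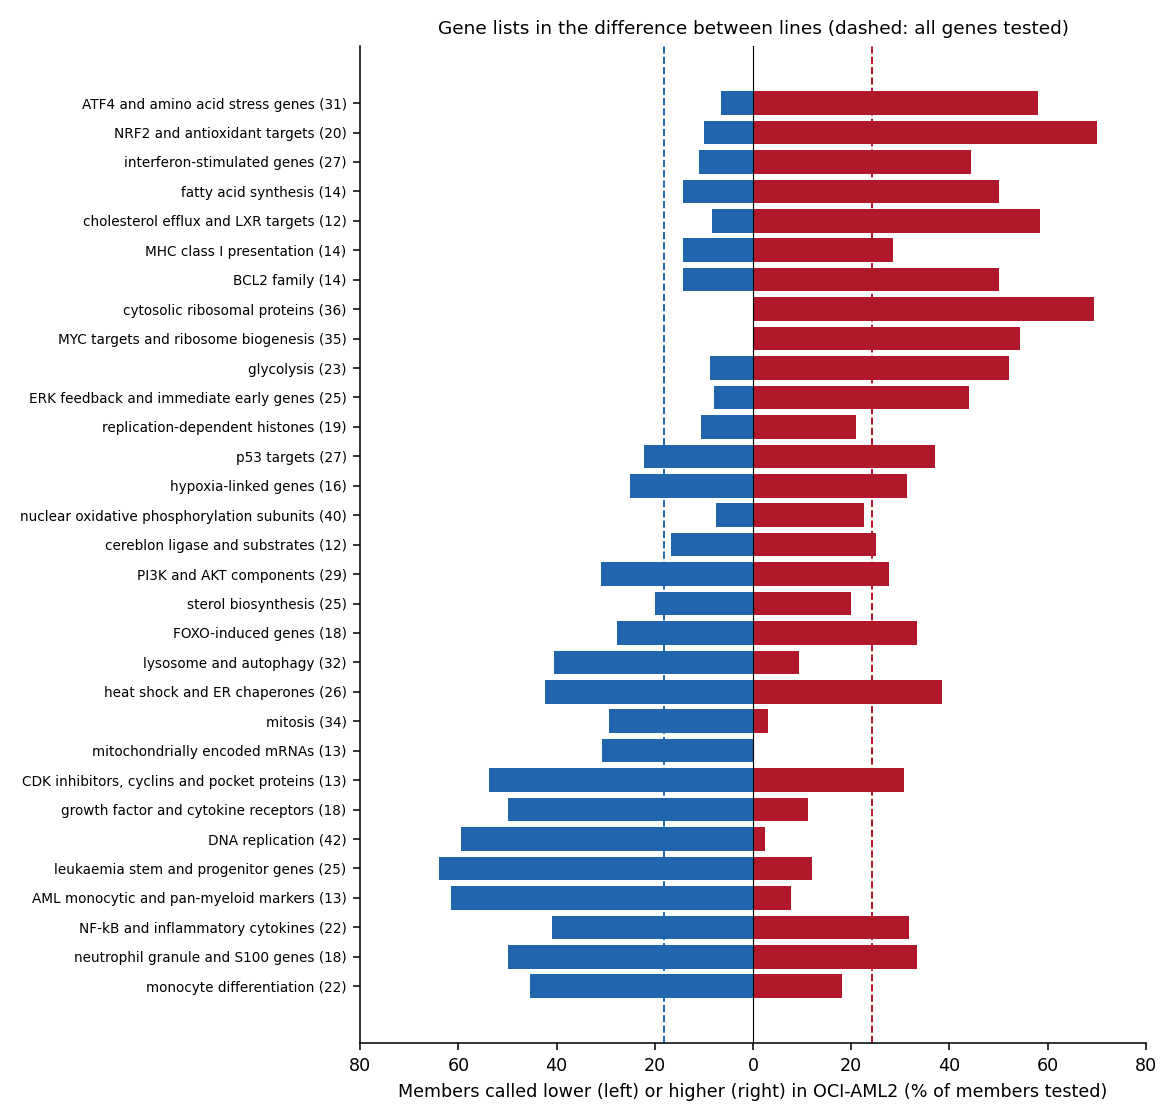
Share of the tested members of each list with a called difference (number of members in parentheses), lower in OCI-AML2 to the left in blue and higher to the right in red, ordered by the median difference. The dashed lines are the shares among all genes tested, 18.1% lower and 24.3% higher: the ATF4 and NRF2 lists lie well past the right line, and the DNA replication and leukaemia stem lists past the left.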

How the data were processed

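RNA of 24 libraries was sequenced, 4 for each of 3 treatments in each of 2 lines. The submitters' processing notes name kallisto, with no version stated; the genome build, the annotation and the scaling method are not given in the sources used here. The deposited values are signal values, normalized estimated counts per gene symbol, which the authors scaled separately for each line. Dividing by the value of 1 read gave whole numbers within 0.01 for 15.1 to 15.9% of values above 0 per library, so no count test was run. The 16 ARM165 and DMSO libraries held 35.4 M to 59.0 M estimated reads.

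A gene was kept where 4 or more libraries of each line reached a value of 10, and log2(value + 1) was fitted by limma 3.58.1 in R 4.3.3 with 1 mean per group, all 24 libraries sharing the estimate of the spread (trended empirical Bayes). Fold changes on this scale understate those of low genes. P-values are two-sided, with Benjamini-Hochberg adjustment over 14287 genes and calls under 0.05. The fit was checked on simulated data. The tables and figures were made with Python 3.11.15.

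Named genes were PIK3CG, PIK3R5, PIK3R6, AKT1 and AKT2; the 8 largest called differences in each direction and the 8 opposite calls with the largest smaller change, at a mean of at least 100 in 1 group of each line and without clone-style symbols; and up to 4 called members of each list with the smallest p, or its most abundant member where none was called. Of 163 genes described with full values, 147 follow this rule; a few others that it names or that belong to the lists are not reported here, though they are counted in the lists. The comparison, the members and the lists were chosen with earlier results of these data known. The alternatives were other pseudocounts, filters, scalings and variance models, a fit of the 16 libraries alone, a replicate block, and leaving out each library. Promoter letters come from RefSeq on GRCh38.p14, matched by symbol.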

Additional observations from a re-analysis of the deposited data

Results flagged for a closer look

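The response to ARM165 differed between the lines, by the limma test of the difference itself, for 6053 genes. Of the 27 named genes called in both lines with opposite signs, those that rose in OCI-AML2 and fell in MOLM14 had differences in log2 as follows. The largest were CPXM1 (5.94), KITLG (3.42), SCO2 (3.19), RUBCNL (2.48), OAS2 (2.44) and RIPOR2 (2.42), followed by FOSL1 (2.06), ISG15 (1.77), PKM (1.52), DDX58 (1.41), SREBF1 (1.11), GSR (1.06), RRP12 (0.98), PHGDH (0.86) and IRS2 (0.57). Those that fell in OCI-AML2 and rose in MOLM14 were CEBPE (-3.53), CELSR3 (-3.53), PILRA (-3.03), PTPN22 (-2.98), HOXA3 (-1.58), CD68 (-1.52), NDRG1 (-1.10), NCAM1 (-1.08), TYROBP (-1.06), INPP4A (-1.06), HK2 (-1.01) and HYOU1 (-0.83). A called difference was a condition for picking these genes, so those calls add no support. Treated and control libraries of PHGDH and IRS2 overlapped in MOLM14.

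In 39 of 652 groups of 4 libraries of the named genes, 1 library lay far from the other 3, by Dixon's criterion, which chance meets in about 1 of 20 groups. In OCI-AML2 with ARM165, replicate 1 was apart for PIK3CG (1180.2, low), TGFBI (267, low), COX4I1 (14334, low), BCL2A1 (989.7, low) and GFI1 (4833, low). In OCI-AML2 with ARM165, replicate 2 was apart for PRIM1 (296, low) and SLC7A11 (6308, low). In OCI-AML2 with ARM165, replicate 3 was apart for INPP4A (717, low), RFC4 (1820.5, high) and OSM (523, low). In OCI-AML2 with ARM165, replicate 4 was apart for HK2 (6425, high). In OCI-AML2 with DMSO, replicate 1 was apart for INO80B-WBP1 (153, high), RRP12 (1580.3, low), MT-ND3 (44697, low), IRF1 (522, high) and SCARB1 (7998, high). In OCI-AML2 with DMSO, replicate 2 was apart for PIK3R5 (1328, low) and BHLHE40 (524, high). In OCI-AML2 with DMSO, replicate 3 was apart for RPL7A (83717, high). In OCI-AML2 with DMSO, replicate 4 was apart for PLEKHN1 (17.8, high), OAS2 (176, low) and MUC1 (397, high). In MOLM14 with ARM165, replicate 3 was apart for TNF (1300.2, high) and RUBCNL (2925, low). In MOLM14 with ARM165, replicate 4 was apart for PTPN22 (5004, high), SESN1 (3474, high), CDKN1A (48929, high), S100A6 (18704, high), IRF1 (4138, high), SQSTM1 (10744, high), PDIA4 (5362, high), HIST1H2BN (252, high), HIST1H1C (1676, high) and IFIH1 (1552, high). In MOLM14 with DMSO, replicate 1 was apart for LAMP2 (7714, low). In MOLM14 with DMSO, replicate 2 was apart for PAX5 (426, low) and BST2 (1771, low). In MOLM14 with DMSO, replicate 4 was apart for TCTEX1D1 (380.4, high) and KLF4 (557, high). Values are normalized estimated reads, each beside whether it was the high or the low one. MOLM14 ARM165 replicate 4 was apart for more of the named genes than any other library, and the summed normalized reads of that library were the highest of its group (41.2 M, against 37.3 M to 38.7 M in the other 3).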

How the results depend on the processing

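Under 26 alternatives, all chosen with earlier results of these data known, 4177 values of the named genes kept their direction and side of the threshold. The difference of PIK3R6 turned to 0.12 without OCI-AML2 ARM165 replicate 1 and lay between -0.36 and 0.12 over all single libraries left out, never called. Of 158 called genes, 153 stayed called under every alternative. AKT2 lost its call with quantile normalization and with equal totals, and MT-CO1 with quantile normalization. LY75-CD302, TNF and TNFRSF13C lost theirs under several alternatives each, 12, 11 and 13 of the 16 single libraries left out among them. GP1BA was called without OCI-AML2 DMSO replicate 2 (-1.27) and PIK3CD without OCI-AML2 DMSO replicate 1 (0.24).

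With 1 library left out, called differences numbered 5728 to 6061, of which 3243 to 3620 were higher and 2385 to 2556 lower in OCI-AML2. The other alternatives gave 5797 to 6208 in all. The higher ones numbered 2382 and the lower ones 3821 with equal totals, 3305 and 2903 with quantile normalization, and 3471 and 2582 as deposited; the cause was not tested. Opposite calls numbered 597 to 681 with 1 library left out and 582 to 688 otherwise. OCI-AML2 calls ran from 9640 to 9960 and MOLM14 calls from 9546 to 9927 with 1 library left out.

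ARM165 and DMSO libraries with the same replicate number did not deviate together (correlations of -0.026 to 0.038 per pair), so the numbers were not read as pairing. With the replicate number as a block (replicate block), 5970 differences and 656 opposite calls were found. Low genes have the widest intervals, and a missed call there does not show an equal response.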
